A study of Mus musculus with 12 samples.

Results

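The 10 genes described here are those that make, activate, sense or tether transforming growth factor-β (TGF-β): the ligands Tgfb1, Tgfb2 and Tgfb3, the receptors Tgfbr1, Tgfbr2 and Tgfbr3, and the activators Furin, Lrrc32, Itgav and Itgb8. A gene was taken from the array where a transcript cluster carried exactly 1 gene symbol, and the cluster with the highest mean over the 12 arrays stood for the gene. All 10 were found among 22180 genes measured in this way, 9 of them through a single cluster and Itgav through the brighter of its clusters.

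TGF-β is secreted as a dimer in a latent complex, after the convertase furin has cut the precursor, and the propeptide then keeps the cytokine inactive. On regulatory T cells the membrane protein GARP, encoded by Lrrc32, holds that complex at the surface, and integrins that contain the αv chain pull the cytokine free of it. Active TGF-β binds the type II receptor, which phosphorylates the type I receptor, and the Smad proteins carry the signal to the nucleus, where in T cells it contributes to the induction of Foxp3.

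The study profiled T cells of C57BL6 mice carrying a green fluorescent reporter of Foxp3, the transcription factor that defines regulatory T cells. Resting CD8 or CD4 T cells, 200000 per well, were cultured with 20000 CD11c dendritic cells of BALB/c mice, a foreign strain, so that all 4 groups were alloreactive cultures. The 3 CD8 control and 3 CD4 control samples received IL-2 alone at 5 ng/mL and were sorted as reporter-negative cells. The 3 CD8 Foxp3+ and 3 CD4 Foxp3+ samples were given the same IL-2, retinoic acid at 40 nM and TGF-β at 5 ng/mL, and were sorted as reporter-positive cells. CD8 cultures ran for 4 days and CD4 cultures for 5 days, and wells were pooled before sorting. Each array was hybridised with material from 250 ng of total RNA. Treatment and the Foxp3 sort changed together within each lineage, and lineage and culture time changed together, so these cannot be told apart. TGF-β was itself one of the additives, so the Foxp3+ comparisons describe the pathway's own genes in cells given its ligand. The labels do not say whether the 3 samples of a group, lettered A, B and C, came from separate animals or cultures, so p-values speak to the spread among these samples alone, and that spread may be technical.

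The labels were checked first. Foxp3 rose from 5.66 ± 0.59 to 12.48 ± 0.05 in CD8 cells and from 5.76 ± 0.29 to 12.44 ± 0.05 in CD4 cells (log2 RMA level, mean ± SD, n = 3 per group, here and below). Cd4 averaged 12.31 and 11.92 in the CD4 groups against 5.36 and 5.17 in the CD8 groups, and Cd8b1 averaged 11.86 and 11.97 in the CD8 groups against 7.72 and 6.17 in the CD4 groups. Over all genes Pearson's r ran from 0.992 to 0.994 between arrays of a group and from 0.962 to 0.991 between arrays of different groups. Of 53 listed markers of 7 cell types 44 were measured, and the log2 of the summed T cell marker signal lay between 13.79 and 14.22 on every array. It was higher without overlap in CD8 Foxp3+ (14.1 to 14.16) than CD8 control cells (13.79 to 13.95), and it overlapped between the CD4 groups. The same sum of 11 dendritic cell markers lay between 10.66 and 10.97 in CD8 controls, 10.71 and 10.89 in CD8 Foxp3+, 10.89 and 11.28 in CD4 control and 10.27 and 10.87 in CD4 Foxp3+ cells. It overlapped in CD8 cells and was lower without overlap in CD4 Foxp3+ than CD4 control cells. Cd209a, with group means from 9.23 to 9.47, and H2-Ab1, at 10.0 in CD4 control and 8.95 in CD4 Foxp3+ cells, mainly carried this sum. Of the 11, 2 were lower in each lineage and 0 higher at an adjusted p under 0.05 (limma). These were Itgax and Batf3 in CD8 cells, and Batf3 and H2-Ab1 in CD4 cells. For 5 B cell markers, carried by Ighm, the ranges in the group order above were 11.98 to 12.23, 13.17 to 13.3, 10.99 to 11.15 and 12.74 to 12.93, so this sum was higher in the Foxp3+ cells of both lineages. Ighm and Cd79b were called higher in both lineages (limma) and Cd79a in CD8 cells. Ms4a1, with group means from 3.57 to 3.82, and Pax5, from 4.99 to 5.12, were called in neither. For 9 macrophage and monocyte markers the ranges in that group order were 9.06 to 9.5, 8.91 to 9.37, 9.26 to 9.38 and 8.65 to 8.88, overlapping in CD8 cells and lower without overlap in CD4 Foxp3+ than CD4 control cells. Of these 9, in CD4 cells 1 was lower, Cd68, and 1 higher, Lyz2, at an adjusted p under 0.05 (limma). The values are on a scale without a true 0, and the part of these other transcripts in the results below was not tested. In bulk samples, fewer cells that express a gene and less RNA per cell cannot be told apart.

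Between CD8 control and CD8 Foxp3+ cells 5 of the 10 genes rose, Tgfb3, Tgfbr1, Furin, Lrrc32 and Itgav, and none fell at an adjusted p under 0.05 (limma, Benjamini-Hochberg over 22180 genes), with 1, Tgfbr3, lower at an unadjusted p under 0.05. Over all genes 20.0% passed in this comparison, 9.39% higher and 10.6% lower. The median log2 change of the 10 genes was 0.26, against -0.02 over all genes, and their median size of change was 0.37, against 0.15. The 10 genes were chosen with earlier results of these data known. Their counts and medians beside those of all genes, here and below, are therefore no independent evidence.

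In CD4 cells the same comparison split the genes. Tgfbr1, Furin, Lrrc32 and Itgb8 rose and Tgfb1, Tgfb3, Tgfbr3 and Itgav fell, 4 in each direction, beside 22.5% of all genes passing, 12.1% higher and 10.4% lower. The median change was -0.14, against 0.00 over all genes, and the median size of change was 0.86, against 0.17. All but Tgfb2 and Itgb8 averaged above the median of all gene means, and the comparisons with all genes were not matched for level.

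**Figure D1:**
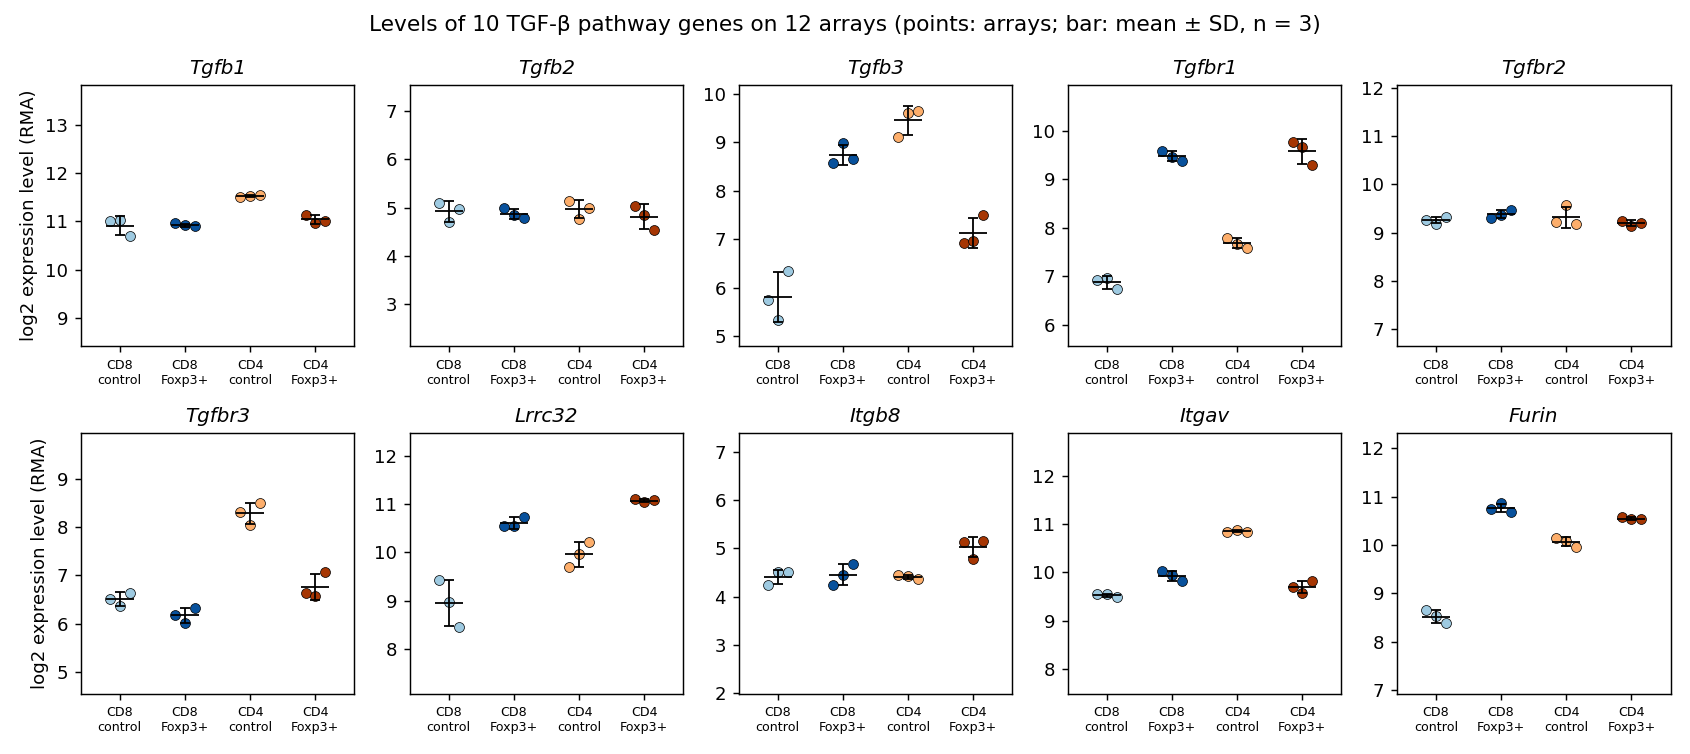
Log2 RMA level (vertical axis) of each of the 10 genes in the 4 groups (horizontal axis), with a point for each of 12 arrays and a bar for the mean ± SD (n = 3). Tgfbr1, Lrrc32 and Furin are higher in both Foxp3+ groups than in their controls, whereas Tgfb3 and Itgav are higher in CD8 Foxp3+ than CD8 control cells and lower in CD4 Foxp3+ than CD4 control cells.

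Among the ligands, Tgfb3 had the widest range. In the CD8 controls A, B and C it stood at 5.74, 5.32 and 6.35, and in the CD8 Foxp3+ samples at 8.58, 8.98 and 8.66. In the CD4 controls it stood at 9.11, 9.6 and 9.66, and in the CD4 Foxp3+ samples at 6.92, 6.97 and 7.49. No group overlapped another, the CD4 controls being highest, followed by CD8 Foxp3+, CD4 Foxp3+ and CD8 control cells. Tgfb3 rose 7.66-fold in CD8 cells (log2 fold change 2.94 ± 0.24 SE, adjusted p = 1.98e-06) and fell 5.02-fold in CD4 cells (-2.33 ± 0.24, adjusted p = 1.14e-05). The controls themselves differed 12.6-fold, CD8 below CD4 (-3.65 ± 0.24, adjusted p = 4.08e-07).

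Tgfb1, the main isoform of immune cells, changed in CD4 cells alone by this test, and little. It stood at 11.01, 11.03 and 10.69 in CD8 controls and at 10.96, 10.92 and 10.9 in CD8 Foxp3+ cells. It stood at 11.51, 11.52 and 11.55 in CD4 controls and at 11.14, 10.96 and 11.01 in CD4 Foxp3+ cells. The CD4 controls lay above all other arrays, while CD8 control arrays overlapped both Foxp3+ groups. The CD8 Foxp3+ arrays lay below the CD4 Foxp3+ arrays by less than the rounding shown, so that both groups read 10.96 where they come closest. The fall in CD4 cells was 1.4-fold (-0.49 ± 0.10, adjusted p = 0.00298). In CD8 cells the change was 0.02 (95% confidence interval -0.20 to 0.23, adjusted p = 0.949).

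Tgfb2, the remaining isoform, lay between 4.53 and 5.14 on all 12 arrays, below 5.60, the median of all gene means. Its group means were 4.92 ± 0.21 in CD8 controls, 4.87 ± 0.10 in CD8 Foxp3+, 4.97 ± 0.19 in CD4 control and 4.81 ± 0.26 in CD4 Foxp3+ cells. All 4 groups overlapped, and its change did not pass in CD8 cells (-0.05, adjusted p = 0.888) or CD4 cells (-0.16, adjusted p = 0.49). No background level was used here, so whether such a level differs from no expression was not tested.

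Of the receptors, Tgfbr1, the type I receptor kinase ALK5 that activates the Smads, rose in both lineages. It stood at 6.92, 6.97 and 6.73 in CD8 controls against 9.58, 9.46 and 9.39 in CD8 Foxp3+ cells. It stood at 7.78, 7.66 and 7.59 in CD4 controls against 9.78, 9.67 and 9.29 in CD4 Foxp3+ cells. The Foxp3+ groups overlapped each other and lay above both control groups, and the CD8 controls lay lowest. The rise was 6.07-fold in CD8 cells (2.60 ± 0.12, adjusted p = 2.02e-08) and 3.73-fold in CD4 cells (1.90 ± 0.12, adjusted p = 1.99e-07). The CD8 controls were 1.75-fold below the CD4 controls (-0.81 ± 0.12, adjusted p = 0.000478).

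Tgfbr1 and Furin are the genes with a RefSeq promoter entry here that rose in both lineages, and the 250 bases before their listed starts are shown for that reason, 5′ to 3′ on the gene's strand (build GRCm38.p6). Capitals mark CAGAC, a sequence that Smad3 and Smad4 bind, searched on both strands (CAGAC and GTCTG). The Tgfbr1 windows are chr4:47352972-47353221 and chr4:47385966-47386215, both on the plus strand.
Tgfbr1, start 1: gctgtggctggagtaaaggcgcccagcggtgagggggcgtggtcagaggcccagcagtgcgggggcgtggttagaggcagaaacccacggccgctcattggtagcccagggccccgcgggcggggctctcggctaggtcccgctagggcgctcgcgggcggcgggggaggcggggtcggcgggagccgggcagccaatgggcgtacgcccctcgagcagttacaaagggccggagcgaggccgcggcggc
Tgfbr1, start 2: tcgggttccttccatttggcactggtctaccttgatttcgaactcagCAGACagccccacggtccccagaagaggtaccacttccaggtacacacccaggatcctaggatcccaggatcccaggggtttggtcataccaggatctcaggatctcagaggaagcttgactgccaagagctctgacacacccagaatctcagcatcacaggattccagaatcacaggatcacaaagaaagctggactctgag
The Furin windows are chr7:80405437-80405686 and chr7:80402813-80403062, both on the minus strand.
Furin, start 1: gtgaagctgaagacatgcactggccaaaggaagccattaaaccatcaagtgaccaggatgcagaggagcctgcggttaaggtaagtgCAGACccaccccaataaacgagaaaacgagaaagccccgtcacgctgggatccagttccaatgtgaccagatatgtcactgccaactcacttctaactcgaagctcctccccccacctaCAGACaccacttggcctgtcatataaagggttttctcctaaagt
Furin, start 2: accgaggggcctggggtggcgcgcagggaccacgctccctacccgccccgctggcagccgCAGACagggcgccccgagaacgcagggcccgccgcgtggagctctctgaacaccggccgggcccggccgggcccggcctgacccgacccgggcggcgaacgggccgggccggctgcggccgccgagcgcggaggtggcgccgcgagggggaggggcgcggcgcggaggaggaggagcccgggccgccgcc
The first Tgfbr1 window held 0 matches and the second 1, and the Furin windows held 2 and 1. Entries were matched for 7 of the 10 genes, with 9 windows, of which 6 held CAGAC, including windows of Tgfb2 and Tgfbr2, which did not pass in either lineage. Of all 32851 windows of this length 42.2% held it. The retinoic acid receptor half-site AGGTCA searched on both strands was in 0 of the 9 windows and in 14.0% of all windows. A match describes these letters in this window and no binding was measured. Tgfb3, Tgfbr3 and Lrrc32 had no entry.

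Tgfbr2, the type II receptor that binds the ligand first, stayed within 9.14 to 9.57 on all 12 arrays. Its means were 9.26 ± 0.07 in CD8 controls, 9.38 ± 0.08 in CD8 Foxp3+, 9.32 ± 0.22 in CD4 control and 9.20 ± 0.06 in CD4 Foxp3+ cells. The arrays overlapped between control and Foxp3+ cells in both lineages. The change was 0.12 in CD8 cells (95% confidence interval -0.11 to 0.35, adjusted p = 0.524) and -0.12 in CD4 cells (-0.36 to 0.11, adjusted p = 0.468).

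Tgfbr3, or betaglycan, the co-receptor that presents ligand and can be shed, was highest in CD4 controls. It stood at 8.3, 8.05 and 8.49 there and at 6.63, 6.57 and 7.07 in CD4 Foxp3+ cells. It stood at 6.52, 6.37 and 6.64 in CD8 controls and at 6.17, 6.01 and 6.33 in CD8 Foxp3+ cells. The CD4 controls lay apart from all others, the CD4 Foxp3+ and CD8 control arrays overlapped, and the CD8 Foxp3+ arrays lay lowest. The fall in CD4 cells was 2.87-fold (-1.52 ± 0.15, adjusted p = 7.63e-06). In CD8 cells the change was -0.34 (95% confidence interval -0.67 to -0.01) and did not pass (adjusted p = 0.149), although the arrays did not overlap. Counting it, 6 of the 10 genes had arrays apart in the CD8 comparison, beside 33.5% of all genes, and 8 of 10 in the CD4 comparison, beside 37.8%.

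Among the activators, Furin, which cuts the precursor of all isoforms, rose more in CD8 than in CD4 cells. It stood at 8.66, 8.53 and 8.38 in CD8 controls against 10.75, 10.87 and 10.69 in CD8 Foxp3+ cells. It stood at 10.15, 10.09 and 9.97 in CD4 controls against 10.59, 10.53 and 10.54 in CD4 Foxp3+ cells. None of the 4 groups overlapped, and the order from the top was CD8 Foxp3+, CD4 Foxp3+, CD4 control and CD8 control. The rise was 4.76-fold in CD8 cells (2.25 ± 0.09, adjusted p = 6.75e-09) and 1.4-fold in CD4 cells (0.48 ± 0.09, adjusted p = 0.00206). The CD8 controls were 2.93-fold below the CD4 controls (-1.55 ± 0.09, adjusted p = 1.84e-07).

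Lrrc32 (GARP) stood at 9.42, 8.98 and 8.45 in CD8 controls and at 10.54, 10.54 and 10.74 in CD8 Foxp3+ cells. It stood at 9.7, 9.96 and 10.22 in CD4 controls and at 11.1, 11.04 and 11.08 in CD4 Foxp3+ cells. None of the 4 groups overlapped, and the CD4 Foxp3+ cells were highest. GARP message rose 3.16-fold in CD8 cells (1.66 ± 0.20, adjusted p = 5.01e-05) and 2.17-fold in CD4 cells (1.12 ± 0.20, adjusted p = 0.00102). The difference between these rises was 0.54 (95% confidence interval -0.06 to 1.14, adjusted p = 0.245).

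Itgav, the αv integrin chain, moved in opposite directions. It stood at 9.56, 9.55 and 9.5 in CD8 controls and at 10.02, 9.94 and 9.83 in CD8 Foxp3+ cells. It stood at 10.84, 10.88 and 10.83 in CD4 controls and at 9.7, 9.58 and 9.83 in CD4 Foxp3+ cells. The CD4 controls were highest, the Foxp3+ groups overlapped and the CD8 controls were lowest. In CD4 cells Itgav fell 2.22-fold (-1.15 ± 0.09, adjusted p = 7.17e-07), and in CD8 cells it rose 1.31-fold (0.39 ± 0.09, adjusted p = 0.00568). The rise in CD8 cells was not called when the clusters were averaged (0.28, adjusted p = 0.0848) or from the dimmer cluster alone (0.17, adjusted p = 0.565), which averaged 5.49 against 10.0 for the brighter, and in which the CD4 fall was -0.69 (adjusted p = 0.00755).

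Itgb8, the β chain that pairs with αv to release TGF-β from its latent complex, was low throughout. It stood at 4.23, 4.5 and 4.5 in CD8 controls, 4.24, 4.44 and 4.68 in CD8 Foxp3+ and 4.44, 4.42 and 4.36 in CD4 control cells, and at 5.13, 4.77 and 5.15 in CD4 Foxp3+ cells. The CD4 Foxp3+ arrays lay above all others, the other 3 groups overlapped, and all 12 lay below the median of all gene means. The rise in CD4 cells was 1.52-fold (0.61 ± 0.13, adjusted p = 0.00475). The change in CD8 cells was 0.05 (95% confidence interval -0.24 to 0.33, adjusted p = 0.878).

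The difference between the CD8 and the CD4 change was tested as an interaction over the 12 arrays. It passed for 6 of the 10 genes, all with the CD8 change above the CD4 change, beside 13.5% of all genes, 6.01% higher and 7.48% lower. None passed in the other direction (limma), with 1, Itgb8, at an unadjusted p under 0.05 (-0.56 ± 0.19, adjusted p = 0.0693). For Tgfb3 the difference was 5.26 ± 0.34 (adjusted p = 1.27e-06), for Furin 1.77 ± 0.13 (adjusted p = 4.01e-06) and for Itgav 1.54 ± 0.12 (adjusted p = 7.27e-06). For Tgfbr3 it was 1.18 ± 0.21 (adjusted p = 0.00275). These compare a rise with a fall for Tgfb3 and Itgav, a larger with a smaller rise for Furin, and a fall in CD4 cells with an uncalled change in CD8 cells for Tgfbr3.

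The other 2 differences were near the threshold. For Tgfbr1 it was 0.70 ± 0.18 (adjusted p = 0.0191), and it was lost without CD8 Foxp3+ replicate A (adjusted p = 0.0505). For Tgfb1 it was 0.50 ± 0.14 (adjusted p = 0.0329), and it was lost without any 1 of the CD8 Foxp3+ or CD4 control arrays or of CD4 Foxp3+ B and C (adjusted p = 0.054 to 0.0778), with all clusters tested (0.0508) and with arrays centred (0.0525). For Itgb8 the difference passed without CD8 Foxp3+ C (adjusted p = 0.0355), without CD4 Foxp3+ B (0.03) and with arrays centred (0.0437). The median difference over the 10 genes was 0.62, against -0.01 over all genes.

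**Figure D2:**
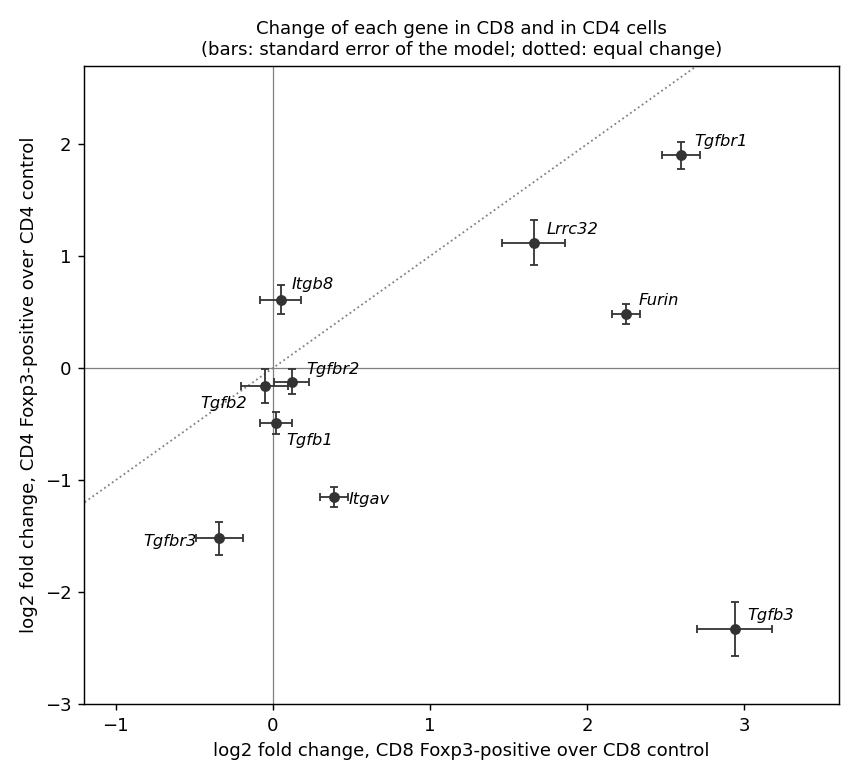
Log2 fold change of each of the 10 genes in CD8 cells (horizontal axis, Foxp3+ over control) against that in CD4 cells (vertical axis), with bars for the model's standard error and a dotted line where the changes would be equal. Tgfb3 and Itgav lie at positive CD8 and negative CD4 changes (2.94 and -2.33, 0.39 and -1.15), while Tgfbr1, Lrrc32 and Furin are positive on both axes.

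The CD8 and CD4 cells were also compared at the same treatment. Among the controls 7 of the 10 genes were lower in CD8 than CD4 cells, Tgfb1, Tgfb3, Tgfbr1, Tgfbr3, Lrrc32, Itgav and Furin, all with arrays apart, beside 20.9% of all genes passing, 12.1% higher and 8.76% lower, and 33.7% with arrays apart. None was higher in CD8 controls (limma, 0 also at an unadjusted p under 0.05). The gap ran from -0.62 for Tgfb1 (1.53-fold, adjusted p = 0.000643) through -1.01 for Lrrc32 (2.01-fold, adjusted p = 0.00247), -1.32 for Itgav (2.49-fold, adjusted p = 4.3e-07) and -1.77 for Tgfbr3 (3.41-fold, adjusted p = 3.72e-06) to -3.65 for Tgfb3. Its median over the 10 genes was -0.91, against 0.00 over all genes. Tgfb2 (-0.05, 95% confidence interval -0.37 to 0.27), Tgfbr2 (-0.06, -0.29 to 0.17) and Itgb8 (0.00, -0.29 to 0.29) did not pass.

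Among the Foxp3+ cells the gaps were smaller in size for 7 of the 10 genes, the same 7 that passed among controls. They were larger for 3, Tgfb2, Tgfbr2 and Itgb8, whose control gaps of 0.05, 0.06 and 0.00 in size could hardly shrink. The match between the 7 with smaller gaps and the 7 called among controls was therefore nearly set by the control gaps. It is no separate evidence of a narrowing. The count of smaller gaps was not made over all genes, whose median gap size was 0.16 among controls and 0.12 among Foxp3+ cells. The interaction above tests the signed difference between the 2 gaps, and the difference between their sizes was not tested. Between the Foxp3+ groups 1 gene was higher in CD8 cells, Tgfb3 (1.61 ± 0.24, 3.06-fold, adjusted p = 0.00157), and 2 were lower, Tgfbr3 (-0.59 ± 0.15, 1.5-fold, adjusted p = 0.0442) and Itgb8 (-0.56 ± 0.13, 1.48-fold, adjusted p = 0.0294). Over all genes 4.71% passed, 2.41% higher and 2.30% lower. The order of CD8 and CD4 cells for Tgfb3 was thus opposite in controls and in Foxp3+ cells. The call for Tgfbr3 was lost without CD8 control A or B, any CD8 Foxp3+ array, CD4 control A, or CD4 Foxp3+ A or C (adjusted p = 0.0504 to 0.168). It was also lost with all clusters tested (0.0615) or only these groups fitted (0.0882). The call for Itgb8 was lost without CD8 Foxp3+ A or B or CD4 Foxp3+ A or C (adjusted p = 0.0914 to 0.121) and with only these groups fitted (0.0962).

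For the other genes the Foxp3+ gap was bounded rather than called. It was -0.10 for Tgfbr1 (95% confidence interval -0.37 to 0.17, adjusted p = 0.774), -0.11 for Tgfb1 (-0.33 to 0.10, adjusted p = 0.65) and 0.18 for Tgfbr2 (-0.05 to 0.42, adjusted p = 0.445). For Furin it was 0.22 (0.02 to 0.42, adjusted p = 0.257), for Itgav 0.23 (0.04 to 0.41, adjusted p = 0.202) and for Tgfb2 0.07 (-0.25 to 0.38, adjusted p = 0.89). For Lrrc32 it was -0.46 (-0.89 to -0.04, adjusted p = 0.254), with the arrays apart, and it passed with only these groups fitted (adjusted p = 0.0351). Arrays of the Foxp3+ groups were apart for 7 of the 10 genes, beside 22.7% of all genes.

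**Figure D3:**
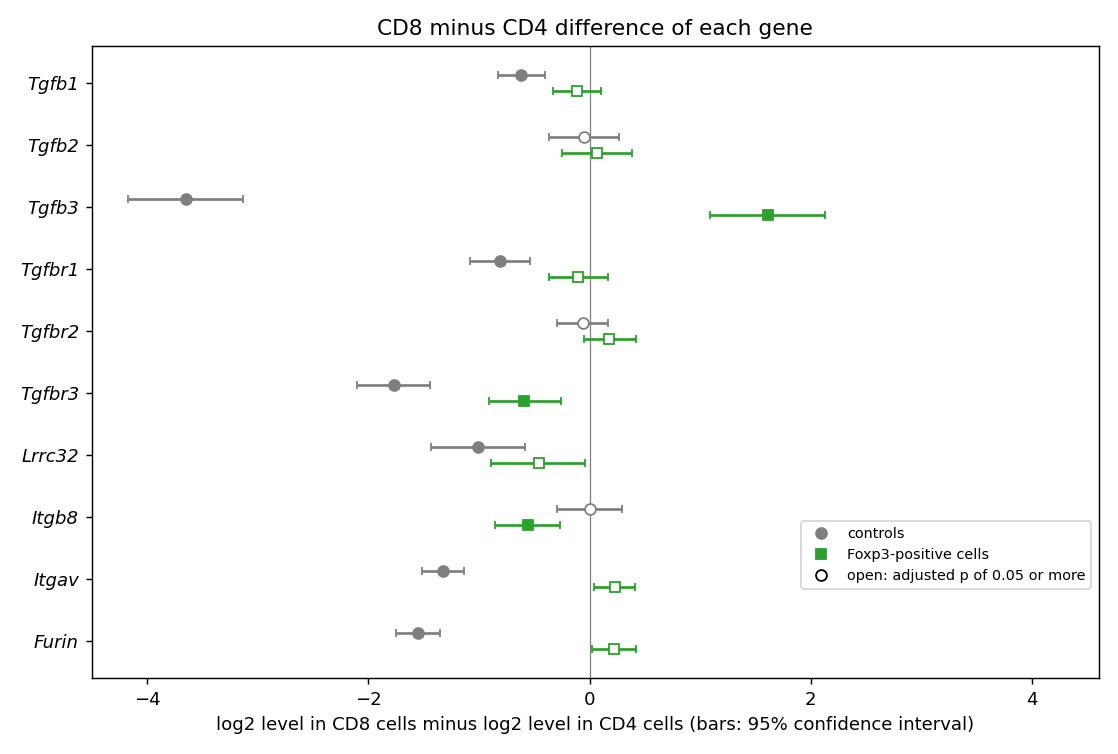
Log2 level in CD8 minus CD4 cells (horizontal axis) of each of the 10 genes (vertical axis), among controls (circles) and among Foxp3+ cells (squares), with 95% confidence intervals and open marks for an adjusted p of 0.05 or more. Among controls 7 genes lie below 0, down to -3.65 for Tgfb3, while among Foxp3+ cells Tgfb3 lies at 1.61 and the others between -0.59 and 0.23.

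The wider pathway was read from 8 lists holding 82 genes, of which 77 were measured. Each list's count is to be read beside the 20.0% of all genes that passed in CD8 cells (9.39% higher, 10.6% lower) and the 22.5% in CD4 cells (12.1% higher, 10.4% lower). A call in 1 lineage alone does not show that the lineages differed. The named genes whose difference passed the interaction test are given further below. In the list of latent complex proteins and their anchors, with 7 genes measured, none rose (limma, 0 also at an unadjusted p under 0.05 in both lineages) and 2 of 7 fell in each lineage. Nrros, a protein that holds latent TGF-β on myeloid cells much as GARP does on T cells, fell by 0.89 ± 0.15 in CD8 cells (adjusted p = 0.000692) and by 0.65 ± 0.15 in CD4 cells (adjusted p = 0.00571). Among the macrophage and monocyte markers Cd68 also fell in both lineages, from 8.56 to 7.92 in CD8 and from 8.57 to 7.38 in CD4 cells, while Lyz2 rose in both, from 4.55 to 6.37 and from 4.45 to 5.51, and the part of such cells in the fall of Nrros was not tested. Ltbp3, which anchors latent TGF-β in matrix, fell in CD4 cells (-0.87 ± 0.13, adjusted p = 0.000201). In CD8 cells its change was -0.31 ± 0.13 (adjusted p = 0.115), with arrays apart. Its difference between lineages did not pass (limma interaction, adjusted p = 0.0533). That difference passed with another spread model (0.044), the filter on low values (0.0229), and without CD8 Foxp3+ C or CD4 Foxp3+ C (0.0444 and 0.0162). Ltbp4 fell in CD8 cells (-0.35 ± 0.11, adjusted p = 0.0482), a call that, among fits leaving out 1 array, was kept only without CD8 control B or CD4 Foxp3+ C (change -0.23 without CD8 control C, adjusted p up to 0.164). It was also lost with another spread model (adjusted p = 0.0546), all clusters tested (0.069), arrays centred (0.0537) and only those groups fitted (0.083). The list's median change was 0.03 in CD8 and -0.05 in CD4 cells. Emilin1, the brightest member that passed in neither lineage, changed by 0.25 and -0.03.

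Among 11 integrin partners, proteases and other activators, 1 rose and 2 fell in CD8 cells, and 2 rose and 3 fell in CD4 cells, so that 3 of 11 passed in CD8 cells beside 20.0% of all genes and 5 of 11 in CD4 cells beside 22.5%, with median changes of 0.04 and 0.06. Itgb3, a β chain that pairs with αv, fell in both. It stood at 9.45, 9.13 and 9.75 in CD8 controls and at 7.14, 6.56 and 6.5 in CD8 Foxp3+ cells, a change of -2.71 ± 0.32 (6.53-fold, adjusted p = 4.36e-05). It stood at 11.38, 11.44 and 11.37 in CD4 controls and at 6.97, 6.28 and 7.91 in CD4 Foxp3+ cells, a change of -4.35 ± 0.32 (20.3-fold, adjusted p = 4.94e-07). The control arrays lay above the Foxp3+ arrays in each lineage, and the CD4 Foxp3+ arrays spread most.

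Mmp9, a gelatinase that can release TGF-β, averaged 9.71 ± 0.36 in CD4 controls and between 5.5 and 5.76 in the other groups. It fell 15.9-fold in CD4 cells (-3.99 ± 0.15, adjusted p = 1.98e-09) and did not pass in CD8 cells (0.26 ± 0.15, adjusted p = 0.308). Itgb5, another partner of αv, likewise fell in CD4 cells (-1.56 ± 0.10, adjusted p = 1.86e-07) with 0.10 ± 0.10 in CD8 cells (adjusted p = 0.574). Itgb1, a partner of many α chains, fell in CD8 cells (-0.90 ± 0.12, adjusted p = 0.000131) with 0.07 ± 0.12 in CD4 cells (adjusted p = 0.743). Plau, the urokinase that generates plasmin, rose in both, by 0.74 ± 0.12 (adjusted p = 0.000757) and 0.77 ± 0.12 (adjusted p = 0.000496). Thbs1, thrombospondin, which binds the latent complex, rose in CD4 cells (0.77 ± 0.23, adjusted p = 0.0269), a call lost without any CD4 control array or without CD4 Foxp3+ B (change 0.49 without the latter, adjusted p up to 0.103). Its group means, from 4.56 to 5.49, lay below the median of all gene means. Mmp14, the brightest that passed in neither, changed by 0.05 and 0.10. Of 6 proprotein convertases other than Furin, 1 passed in each lineage, beside 20.0% and 22.5% of all genes, Mbtps1, the site-1 protease, which rose by 0.55 ± 0.10 (adjusted p = 0.00103) and 0.42 ± 0.10 (adjusted p = 0.00596). Pcsk7, the brightest other, changed by 0.11 and -0.27 (adjusted p = 0.521 and 0.0663), the latter passing without CD8 control B or C (adjusted p = 0.0258 to 0.0461), with another spread model (0.0485) and with the filter on low values (0.0278).

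**Figure D4:**
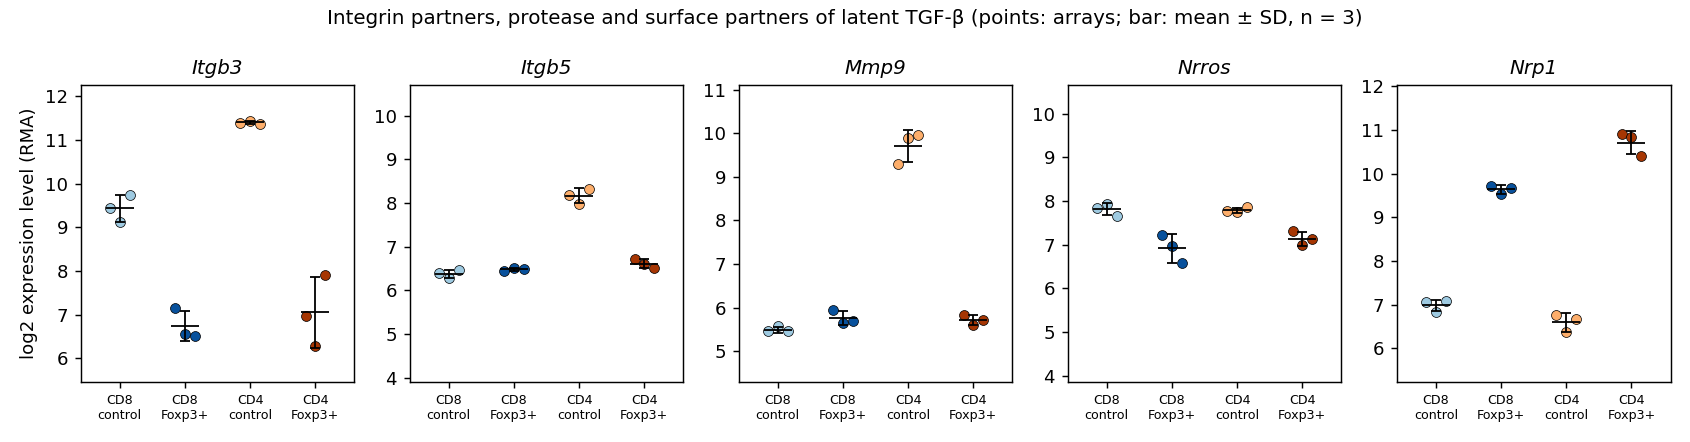
Log2 RMA level (vertical axis) of Itgb3, Itgb5, Mmp9, Nrros and Nrp1 in the 4 groups (horizontal axis), with a point for each array and a bar for the mean ± SD (n = 3). Itgb5 and Mmp9 are high in CD4 controls alone (8.17 and 9.71), Itgb3 is highest there (11.4), and Nrp1 is high in both Foxp3+ groups (9.64 and 10.71).

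Of 7 accessory and decoy receptors 2 rose and 1 fell in CD8 cells, and 1 rose and 2 fell in CD4 cells, 3 of 7 in each beside 20.0% and 22.5% of all genes (median changes -0.11 and -0.17). Nrp1, neuropilin 1, a surface protein that can bind latent TGF-β, rose 6.34-fold in CD8 cells (2.66 ± 0.14, adjusted p = 4.86e-08) and 17.4-fold in CD4 cells (4.12 ± 0.14, adjusted p = 7.36e-10). Bambi, a decoy receptor without a kinase, rose in CD8 cells (0.75 ± 0.16, adjusted p = 0.00515), and its change in CD4 cells (0.32 ± 0.16, adjusted p = 0.195) passed without CD4 Foxp3+ C (0.51, adjusted p = 0.0225). Eng, endoglin, fell by 0.56 ± 0.18 in CD8 cells (adjusted p = 0.0469) and by 0.59 ± 0.18 in CD4 cells (adjusted p = 0.0345). Among fits leaving out 1 array, the CD8 call was kept only without CD8 control B or CD8 Foxp3+ C (change -0.35 without CD8 control C, adjusted p up to 0.17), and the CD4 call was lost without CD4 control B or C or CD4 Foxp3+ A or C (adjusted p up to 0.115). The CD8 call was also lost with all clusters tested (0.0649) and only those groups fitted (0.106). Acvrl1, the type I receptor ALK1, fell in CD4 cells (-0.85 ± 0.25, adjusted p = 0.026), a call lost without CD4 control B or C or CD4 Foxp3+ A or B (adjusted p up to 0.115) and with only those groups fitted (0.0573). In CD8 cells its change was -0.38 ± 0.25 (adjusted p = 0.367), and its difference between lineages did not pass (limma interaction, adjusted p = 0.452). Vasn, which binds TGF-β, changed by -0.11 and -0.26 and passed in neither.

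Of 16 genes of receptor turnover and adaptors, 8 rose and 2 fell in CD8 cells and 7 rose and 0 fell in CD4 cells (limma, with 1 lower at an unadjusted p under 0.05), or 10 and 7 of 16 beside 20.0% and 22.5% of all genes, with median changes of 0.30 and 0.15. Ldlrad4, which keeps Smads from the receptor, had the largest rise of the 16, from 5.78 ± 0.29 to 11.18 ± 0.09 in CD8 cells and from 6.30 ± 0.03 to 11.09 ± 0.11 in CD4 cells (4.78 ± 0.13, 27.5-fold, adjusted p = 6.96e-11). Pmepa1, its relative, rose by 2.86 ± 0.15 in CD8 cells (adjusted p = 3.7e-08) and 1.14 ± 0.15 in CD4 cells (adjusted p = 8.2e-05). Smad7, the inhibitory Smad that brings ubiquitin ligases to Tgfbr1, rose by 1.12 ± 0.10 (adjusted p = 6.05e-06) and 1.37 ± 0.10 (adjusted p = 7.15e-07). The 2 that fell in CD8 cells were the deubiquitinase Usp15 (-0.32 ± 0.08, adjusted p = 0.00992) and the adaptor Strap (-0.31 ± 0.10, adjusted p = 0.0476). Among fits leaving out 1 array, the call for Strap was kept only without CD8 control C, CD8 Foxp3+ B or CD4 control B (adjusted p up to 0.162). It was also lost with all clusters tested (0.069), arrays centred (0.0638) and only those groups fitted (0.099). Usp4, the brightest that passed in neither, changed by 0.00 and 0.21, the latter passing with another spread model (adjusted p = 0.0266), the filter on low values (0.0261) and arrays centred (0.0412).

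Of 9 activin and BMP receptors 3 rose in CD8 and 4 in CD4 cells, and none fell (limma, with 0 and 1 lower at an unadjusted p under 0.05), beside 20.0% and 22.5% of all genes passing, with median changes of 0.04 and 0.24. Acvr2a, an activin type II receptor, rose 9.64-fold in CD8 cells (3.27 ± 0.12, adjusted p = 2.69e-09) and 2.54-fold in CD4 cells (1.35 ± 0.12, adjusted p = 3.71e-06). Bmpr2, the BMP type II receptor, rose by 2.58 ± 0.16 (adjusted p = 1.48e-07) and 2.04 ± 0.16 (adjusted p = 8.55e-07), and Acvr1b, the activin type I receptor, by 0.77 ± 0.12 (adjusted p = 0.000315) and 0.57 ± 0.12 (adjusted p = 0.00284). Acvr1c rose in CD4 cells (0.46 ± 0.14, adjusted p = 0.0348), a call lost without CD4 control A or B or any CD4 Foxp3+ array (adjusted p up to 0.13). Its group means, from 4.18 to 4.64, lay below the median of all gene means. Bmpr1a changed by -0.29 and -0.07 and passed in neither.

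Of 12 other ligands of the superfamily 1 fell in CD8 cells and none rose (limma, with 1 higher at an unadjusted p under 0.05), while 1 rose and 5 fell in CD4 cells, beside 20.0% and 22.5% of all genes passing (median changes -0.01 and -0.18). Gdf11 fell in both, by 0.73 ± 0.10 (adjusted p = 0.00014) and 0.39 ± 0.10 (adjusted p = 0.011, and 0.0505 without CD4 control A). In CD4 cells Bmp7 (-0.99 ± 0.10, adjusted p = 7.75e-06) and the activin subunit Inhba (-0.83 ± 0.14, adjusted p = 0.000657) also fell. So did Inha (-0.42 ± 0.11, adjusted p = 0.0155, and 0.0677 without CD4 control B) and Bmp2 (-0.49 ± 0.14, adjusted p = 0.0222, lost without CD4 control A or B or CD4 Foxp3+ A or C, adjusted p up to 0.0887). In CD8 cells Inhba changed by -0.22 ± 0.14 (adjusted p = 0.333). Its difference between lineages did not pass (limma interaction, adjusted p = 0.0579), but did without CD8 control B, CD8 Foxp3+ C or CD4 Foxp3+ B (0.0314 to 0.0489). Mstn, which rose in CD4 cells (1.02 ± 0.13, adjusted p = 5.18e-05), averaged from 3.25 to 4.34, and like Inhba and Bmp2 lay below the median of all gene means. Inhbb changed by -0.01 and -0.16 and passed in neither.

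Of 9 Smads and Smad repressors 2 rose and 2 fell in CD8 cells and 4 rose and 0 fell in CD4 cells (limma, with 2 lower at an unadjusted p under 0.05), 4 of 9 in each beside 20.0% and 22.5% of all genes, with median changes of -0.03 and 0.20. Skil and Ski, repressors of Smad complexes, rose in both, Skil by 2.52 ± 0.09 (adjusted p = 2.09e-09) and 2.09 ± 0.09 (adjusted p = 5.24e-09), and Ski by 2.04 ± 0.10 (adjusted p = 3.4e-08) and 0.97 ± 0.10 (adjusted p = 1.49e-05). Smad1 (-0.46 ± 0.10, adjusted p = 0.00625) and Smad2 (-0.26 ± 0.08, adjusted p = 0.0322) fell in CD8 cells, the latter call lost without any CD8 control or CD8 Foxp3+ B or C (adjusted p up to 0.108), with all clusters tested (0.0508) and with only those groups fitted (0.0907). In CD4 cells the change of Smad1 was -0.27 (adjusted p = 0.0823), and it passed without CD8 control C (0.0416) and with the filter on low values (0.037). That of Smad2 was -0.21 (adjusted p = 0.0762), and it passed with another spread model (0.047) and with that filter (0.0256). Smad5 (0.42 ± 0.10, adjusted p = 0.00894) and Smad3 (0.38 ± 0.12, adjusted p = 0.037) rose in CD4 cells, the call for Smad3 lost without any 1 CD4 array (adjusted p up to 0.125) and with all clusters tested (0.0513). In CD8 cells the change of Smad5 was 0.30 (adjusted p = 0.0534), and it passed without CD8 control C (0.0104), with another spread model (0.042) and with the filter on low values (0.0205). Smad4, the shared partner, changed by 0.04 and 0.13 and passed in neither. The lists were made with results of these samples known, so their counts are no independent evidence of a direction.

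**Figure D5:**
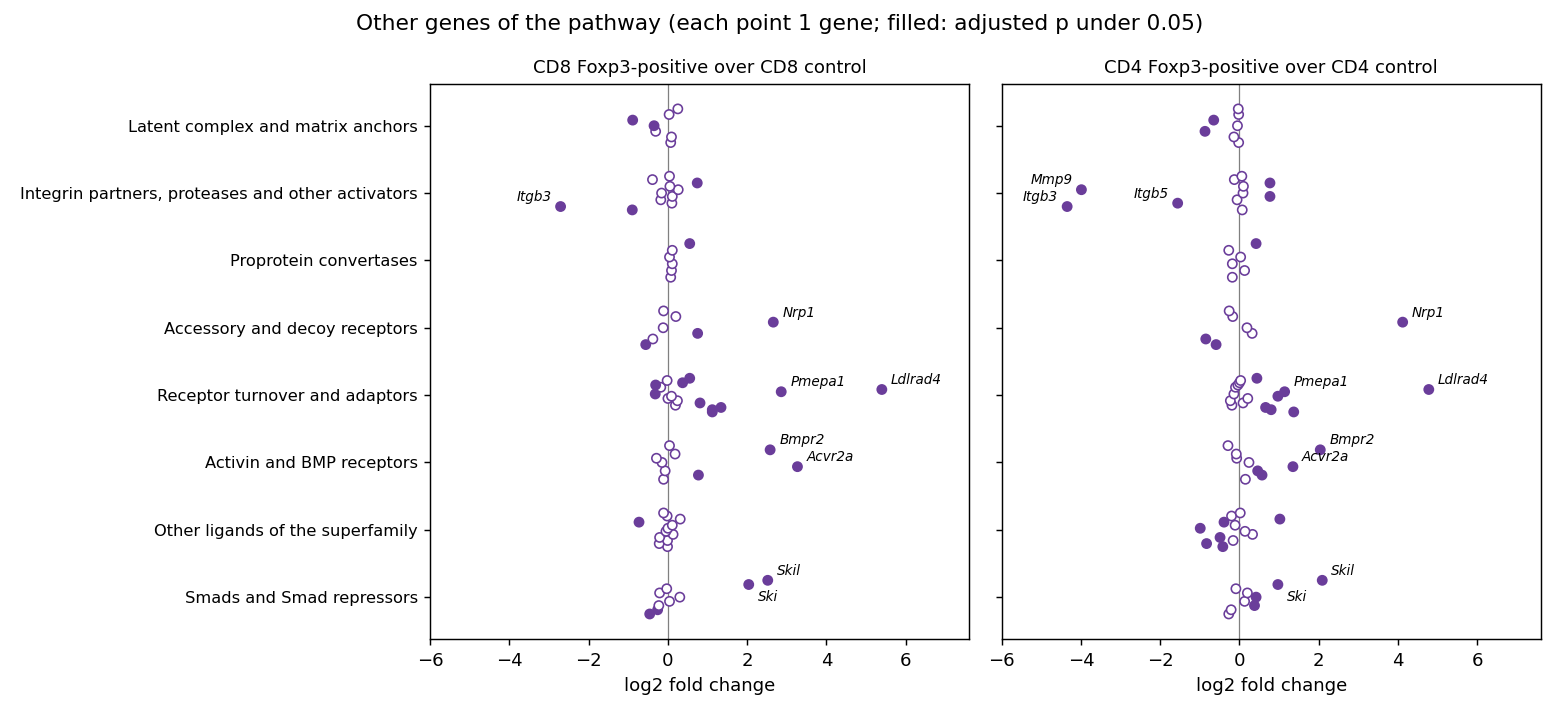
Log2 fold change (horizontal axis) of each measured gene of 8 pathway lists (vertical axis) in CD8 and in CD4 cells, Foxp3+ over control, with filled points for an adjusted p under 0.05. Most points lie near 0. The largest changes in CD8 cells are Ldlrad4 at 5.40, Acvr2a at 3.27, Pmepa1 at 2.86 and Itgb3 at -2.71. In CD4 cells they are Ldlrad4 at 4.78, Itgb3 at -4.35, Nrp1 at 4.12 and Mmp9 at -3.99.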

How the data were processed

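RNA of 12 sorted T cell samples was measured on Affymetrix whole-transcript arrays, which limits precision to their number. The authors deposited a table of log2 expression values for 34365 transcript clusters, made by RMA in Affymetrix Expression Console, per the submitters' processing notes. Their versions and the annotation build were not given in the sources used here. RMA corrects background, quantile-normalizes and summarises probes, so a shift shared by most genes would be removed. Array medians lay between 5.23 and 5.33. Clusters were named from GEO's platform annotation, in which 23521 carried 1 symbol, 1814 several and 9030 none. The brightest cluster was kept per gene, leaving 22180 genes, 1082 of them with more than 1 cluster.

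The values were fitted with limma 3.58.1 in R 4.3.3 (lmFit and eBayes, 4 group means, 12 arrays, 8 residual and 4.56 prior degrees of freedom), with 5 comparisons, each adjusted by Benjamini-Hochberg over 22180 genes at a threshold of 0.05. Fold changes are ratios of group means computed from the deposited log2 values. The fit was tested on simulated data. The 10 genes, the lists and the tests were chosen with earlier results of these data known. Named besides these 10 were 4 label checks and, from each list, the 3 largest changes that passed in either lineage and the brightest gene that passed in neither. A further 13 list genes were named after their values were seen, because they made up counts of 5 or fewer. Alternatives were another spread model, a replicate block, only the groups compared, the mean of a gene's clusters, a filter on low values, all clusters, centred arrays and each array left out. The dimmer Itgav cluster was added after seeing the data. Promoters came from RefSeq.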

Additional observations from a re-analysis of the deposited data

Results flagged for a closer look

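The following genes changed differently in CD8 and CD4 cells by limma's interaction test over 12 arrays (CD8 change minus CD4 change on the log2 scale, ± SE). They comprise 6 of the 10 genes of the report, 13 of 43 named list genes and 1 of the label checks, beside 13.5% of all genes. Most of the 43 were named for called changes in the CD8 or CD4 comparison. Their share is therefore raised by that choice and cannot be set against that of all genes. The 10 genes of the report were chosen with earlier results of these data known, so their share is no independent evidence either. Tgfb3 differed by 5.26 ± 0.34, Furin by 1.77 ± 0.13, Itgav by 1.54 ± 0.12, Tgfbr3 by 1.18 ± 0.21, Tgfbr1 by 0.70 ± 0.18 and Tgfb1 by 0.50 ± 0.14, with the adjusted p-values and the arrays that decide the last 2 given above.

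Among the integrin chains and proteases, Mmp9 differed by 4.25 ± 0.22 (adjusted p = 1.88e-07), Itgb5 by 1.66 ± 0.14 (adjusted p = 1.27e-05), Itgb3 by 1.64 ± 0.45 (adjusted p = 0.0288) and Itgb1 by -0.97 ± 0.17 (adjusted p = 0.00226). The larger change of these was in CD4 cells for the first 3 and in CD8 cells for Itgb1. The difference for Nrp1, which rose more in CD4 cells, was -1.46 ± 0.20 (adjusted p = 0.000462).

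Among receptors and feedback genes, Acvr2a differed by 1.92 ± 0.17 (adjusted p = 1.81e-05), Pmepa1 by 1.72 ± 0.21 (adjusted p = 0.000176), Ski by 1.06 ± 0.15 (adjusted p = 0.000462), Ldlrad4 by 0.62 ± 0.18 (adjusted p = 0.0364) and Skil by 0.43 ± 0.13 (adjusted p = 0.0424), each rising more in CD8 cells. Bmp7 differed by 0.98 ± 0.14 (adjusted p = 0.000506), Mstn by -0.71 ± 0.18 (adjusted p = 0.0185) and Smad3 by -0.62 ± 0.17 (adjusted p = 0.0313).

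The differences of 4 list genes were lost without single arrays. That of Itgb3 was lost without CD8 control A or B, CD8 Foxp3+ A, any CD4 control or CD4 Foxp3+ A (adjusted p = 0.0512 to 0.0732), and with another spread model (0.0519). That of Smad3 was lost without CD8 control A, CD4 control B or CD4 Foxp3+ A (adjusted p = 0.0759 to 0.0787). That of Ldlrad4 was kept only without CD8 control C or CD4 Foxp3+ B (otherwise adjusted p = 0.0532 to 0.089), and that of Skil only without CD8 control A or CD8 Foxp3+ C (otherwise 0.0536 to 0.104). With all clusters tested that of Ldlrad4 (0.0544) and that of Skil (0.0648) were also lost, and with arrays centred that of Skil (0.076).

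Cd8b1, the CD8β chain, differed by 1.66 ± 0.19 (adjusted p = 0.000127), since it fell from 7.72 to 6.17 in CD4 cells and averaged 11.86 and 11.97 in CD8 cells. Cd8a, the other chain, averaged 6.51 in CD4 controls and 7.54 in CD4 Foxp3+ cells, a rise of 1.03 (adjusted p = 0.0273) that was lost without CD4 control C or CD4 Foxp3+ C (changes of 0.64 and 0.72), with another spread model (0.0539) and with only those groups fitted (0.0987).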

How the results depend on the processing

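Of 935 recomputed results for the 10 genes, 902 kept their direction and their side of the threshold, 28 no longer passed, 5 newly passed and 0 reversed. Of 2617 for list genes and label checks 2470 did, 117 no longer passed, 30 newly passed and 0 reversed. With the replicate block, Tgfbr3 passed in CD8 cells (adjusted p = 0.0208), so that 1 of the 10 genes fell there instead of 0. With arrays centred, 1 gene in place of 0 had a lower CD8 than CD4 change. Between the Foxp3+ groups, 1 of the 10 genes in place of 2 was lower in CD8 cells under 3 alternatives. With the filter on low values, which kept 11813 genes and removed Itgb8, it was Tgfbr3, and with all clusters tested it was Itgb8. With only those groups fitted both calls were lost and the 1 lower gene was Lrrc32 (adjusted p = 0.0351). With each array left out, genes with a lower CD8 change numbered 0 to 1 of the 10. Between the Foxp3+ groups, 674 to 1145 genes were called, against 1044, with 341 to 583 higher and 333 to 562 lower. There 1 to 3 of the 10 genes were called and 0 to 2 were lower. The lowest counts came without CD8 Foxp3+ B (674, 341 and 333). Without CD4 Foxp3+ A 687 genes were called, and 347 were higher. Without CD4 Foxp3+ B 355 were higher. The labels do not say whether a letter marks a shared animal or batch. Same-letter samples correlated at -0.10 to 0.14 in their deviations from group means, not all above 0.1, so the letters were not taken as pairs. In the CD8 comparison same-letter pairs gave 0.05 to 0.14 and different letters -0.14 to 0.02, every sample correlating best with its own letter, a hint from the data and not from the design. Between the Foxp3+ groups same-letter pairs gave 0.04 to 0.10 and different letters -0.14 to 0.06. Between controls the ranges were 0.02 to 0.09 and -0.11 to 0.04. In the CD4 comparison they were -0.10 to 0.01 and -0.05 to 0.09. With the block the CD8 calls of Ltbp4 (adjusted p = 0.0697) and Strap (0.0581) and the CD4 call of Acvr1c (0.0582) were lost, Smad5 passed in CD8 cells (0.048), and beside Tgfbr3 no other call of a named gene changed in the comparisons recomputed. The replicate block changed the count of called genes from 4430 to 4359 in CD8 cells, 4985 to 4872 in CD4 cells, 2993 to 2921 for the interaction, 1044 to 989 between Foxp3+ groups and 4636 to 4595 between controls. The interaction could not be refitted on fewer groups. For Tgfb2 and Itgb8, whose levels lay under the median of all gene means, no signal over background was used here. The causes of these changes were not tested.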

Other observations

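For each of the 10 genes whose group means spanned at least 1 on the log2 scale, the genes with the most similar levels were sought by Pearson's r over the 12 arrays among 1533 genes. The arrays fall into 4 groups, so r mainly describes the group means, and it is given as a description. Nearest to Tgfb3 were the receptor Gpr171 (r = 0.967) and the calcium-binding proteins S100a1 (0.963) and S100a13 (0.949), and 15 genes reached 0.9. Gpr171 averaged 9.38 in CD8 control, 10.53 in CD8 Foxp3+, 11.03 in CD4 control and 9.72 in CD4 Foxp3+ cells. Nearest to Itgav were the leukotriene receptor Cysltr1 (0.987), Spef2 (0.981) and the cytokine Il4 (0.978), with 100 genes at 0.9 or more. Il4 averaged 8.94 in CD4 controls and 4.43, 5.02 and 4.51 in CD8 control, CD8 Foxp3+ and CD4 Foxp3+ cells.

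Nearest to Tgfbr3 were the kinase Jak2 (0.987), Med13l (0.985) and Dclk2 (0.983), with 136 genes at 0.9 or more. Nearest to Tgfbr1 were Pigz (0.988), the kinase Sgk1 (0.986) and the transcription factor Gata1 (0.986), with 247 such genes. Nearest to Lrrc32 were Nav1 (0.979), Tmem176a (0.973) and the Smad repressor Ski (0.971), with 74 such genes. Nearest to Furin were Slc22a15 (0.987), Rgs10 (0.985) and the aryl hydrocarbon receptor Ahr (0.982), with 80 such genes. Ahr averaged 6.16 in CD8 controls, 9.23 in CD8 Foxp3+, 8.2 in CD4 control and 8.71 in CD4 Foxp3+ cells.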
